A study of Mus musculus with 12 samples.

Results

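Adamts6, Fbln7, Ltbp1 and Ccn3 are 4 extracellular matrix genes that the study connected to estradiol (E2) and its receptor ESR1 in muscle fibroblasts. Their chromatin was examined here by ATAC-seq, in which a transposase cuts DNA that is not covered by nucleosomes, so that piles of cut ends mark open chromatin. The 4 genes were taken by name out of 21938 protein-coding genes, and a locus was the gene body in the GENCODE M21 annotation with 50000 bp upstream. Every called peak whose summit fell in a locus was kept, which gave 178 peaks out of 658361 in the 12 peak lists.

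The cells were first-passage fibroblasts (herein HAFs) grown from the lower abdominal muscle of Aromhum mice, in which a human aromatase transgene lets that muscle produce E2. After overnight serum-free culture and a pretreatment with fulvestrant or DMSO, an ESR1 degrader and its carrier, the cells received E2 or ethanol for 1 hour. The 4 groups of 3 libraries were vehicle (ethanol and DMSO), 10 nM E2, 10 nM E2 plus 100 nM fulvestrant, and 100 nM fulvestrant alone. All 12 libraries came from Aromhum cells, so no wild-type cells entered any comparison. The labels do not say whether replicates were separate animals or cultures, so p-values measure the spread between these libraries, which may be technical or may lie between animals. Because the assay pooled many cells, a region open in fewer cells and a region less open in each cell cannot be told apart.

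ADAMTS6 is a secreted metalloproteinase that binds the matrix and cleaves matrix proteins. FBLN7 is a fibulin, a secreted glycoprotein that supports cell adhesion. LTBP1 binds latent TGF-β and anchors it in the matrix, where its release starts the signal that drives collagen production by fibroblasts. CCN3 (also NOV) is a matricellular CCN protein known to oppose the profibrotic relative CCN2. On ligand binding, ESR1 attaches to estrogen response elements (EREs) or joins factors such as AP-1 on DNA, mostly at enhancers away from promoters, and fulvestrant blocks the receptor and speeds its breakdown.

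The libraries differed widely within each treatment, and any part of treatment in this was not tested. The peak lists held 30062 to 110724 peaks (median 46548), of which 7.35% to 46.4% had a q-value of 0.05 or less. The share of protein-coding genes with a promoter peak (a summit within 3000 bp of an annotated start site) was 53.7% to 62.7% in the 4 libraries of replicate number 1 and in vehicle replicate 3. It was 44.3% in vehicle replicate 2 and 17.3% to 29.6% in the other 6 libraries. Within numbers 2 and 3 both vehicle libraries lay above all 6 treated ones, so treatment and library quality cannot be told apart there. The 4 number 1 libraries also held 22 to 36 peaks on chromosome Y, against 854 to 1148 in the 8 libraries of numbers 2 and 3. The study describes male mice, the labels give neither sex nor animal, and whether number 1 came from other animals was not tested. Number 1 is therefore set beside numbers 2 and 3 throughout. Read totals are not given in the peak lists, so depth is known only through the background behind the calls. The most common background value of a library was 0.713 to 1.419 reads per window. All 10 fibroblast markers had a promoter peak in 3 to 9 libraries, Lum in 3, Col3a1 in 4, Pdgfra in 7 and Col1a1 in 9. Of the 10, 5 had one in 6 or more libraries, as had 9912 of all 21938 genes. The muscle precursor genes Myod1 and Pax7 had none in any library, the other 4 muscle genes had one in 1 to 8 libraries (Ckm in 8), the 4 endothelial genes in 2 to 6 and the 4 blood cell genes in 1 to 5. Esr1 itself had a promoter peak in 7 libraries, none of them of replicate number 1.

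The 178 peaks merged into 126 regions, 97 of them from 1 library each and 24 from 2 or 3. Regions called in a single library were 77.0% of those at the 4 loci and 77.7% of all 435284 regions in the genome. Only 5 regions were recurrent, meaning called in at least 4 of the 12 libraries, which is 3.97% of the regions of the 4 loci against 6.57% of all regions. Of the 178 peaks, 44 (24.7%) had a q-value of 0.05 or less, as had 24.8% of all peaks. The 4 number 1 libraries and vehicle replicate 3 gave 34 of these 44 (77.3%), and 73.8% of such peaks in the whole lists, so both shares were near those of the genome. The density of peaks placed the loci at the percentiles 8.03 for Adamts6, 14.8 for Ccn3, 24.8 for Ltbp1 and 78.4 for Fbln7 among all protein-coding loci.

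**Figure D1:**
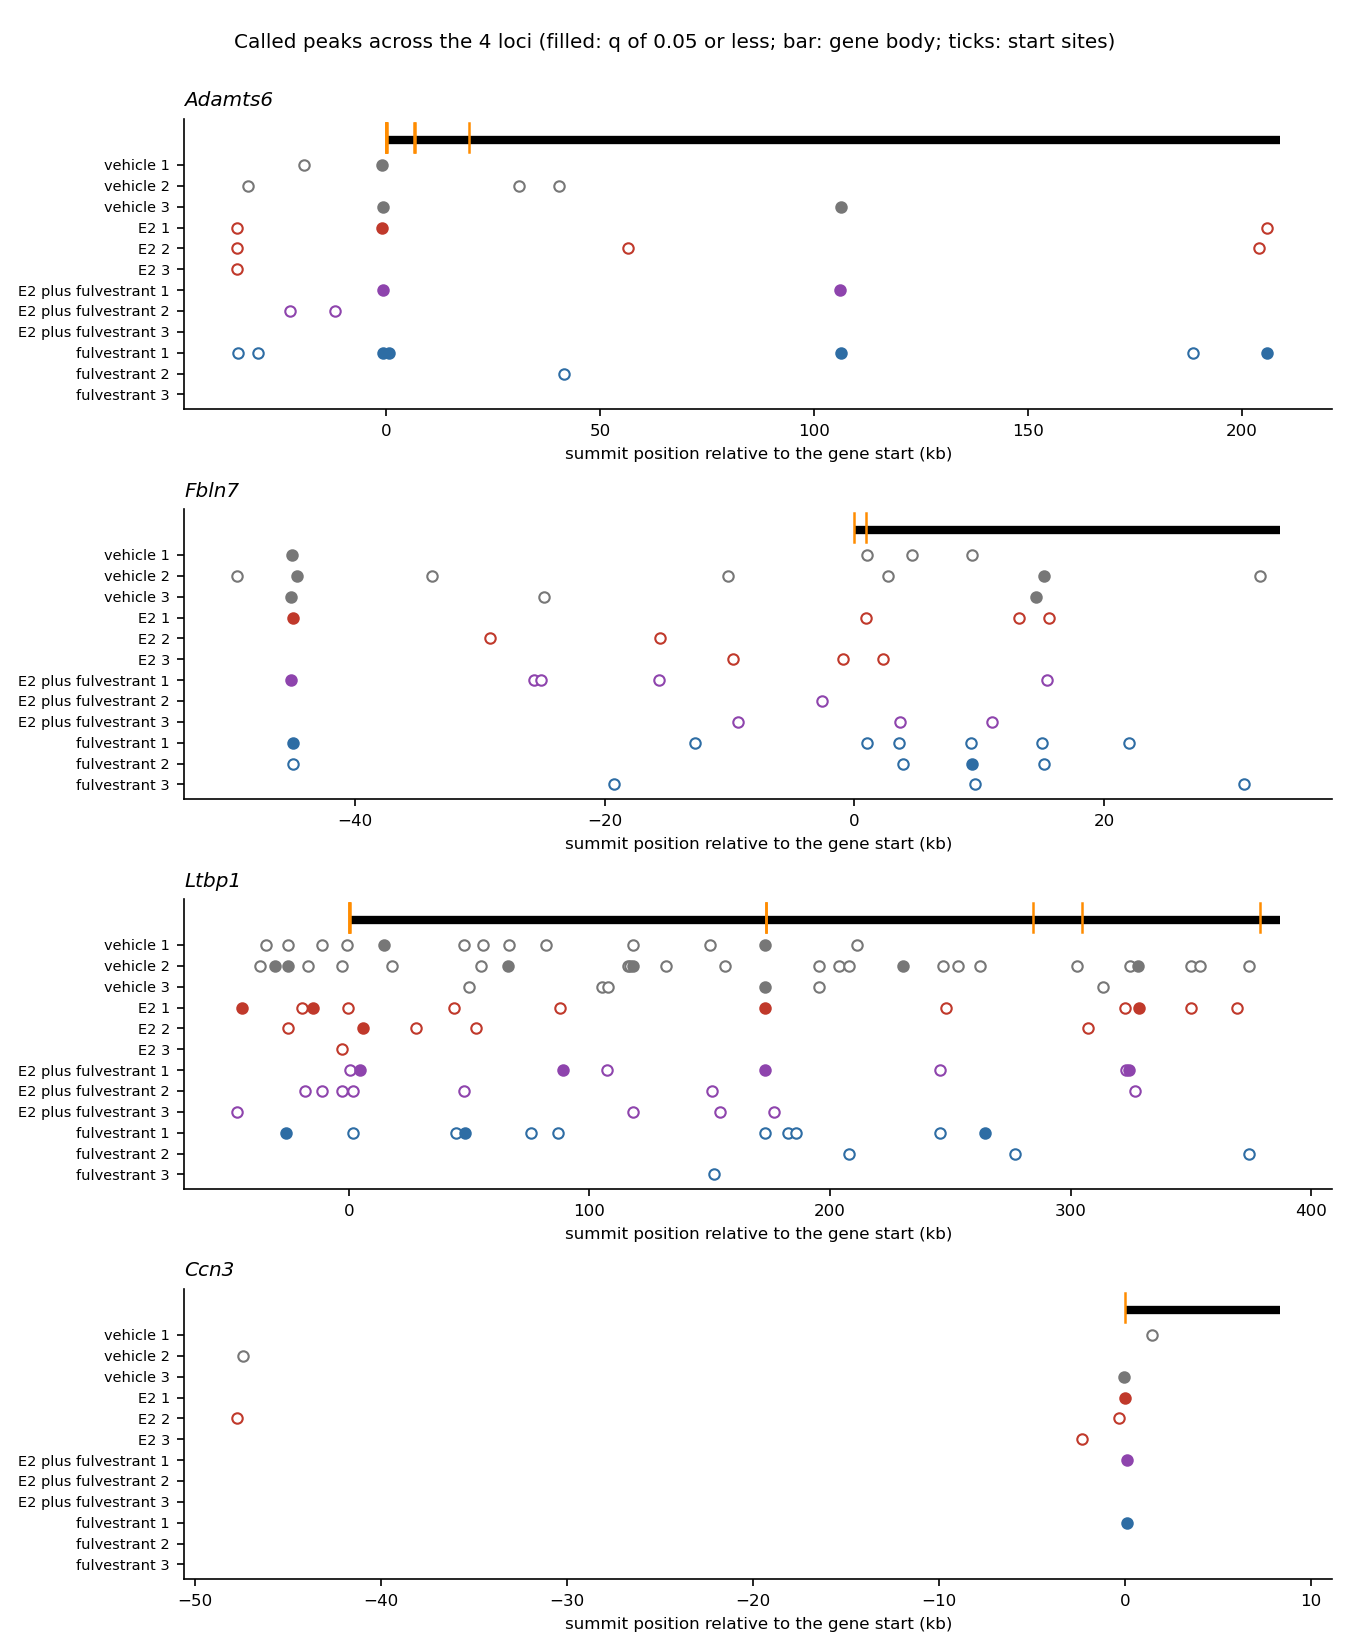
Summits of called peaks (points) in each library (rows) against distance from the gene start in kb, for the 4 loci, with filled points for a q-value of 0.05 or less, a bar for the gene body and orange ticks for annotated start sites. Most of the 126 regions appear in 1 row, and columns of points form at the Adamts6 and Ccn3 starts, at an internal start of Ltbp1, at the upstream edge of the Fbln7 locus and upstream of Adamts6.

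The DNA at 4 of the 5 recurrent regions and at the Fbln7-201 start, which was not recurrent, is shown because the comparisons below turn on these sites. The recurrent region of the Fbln7 locus is not shown, since it overlaps exons of a neighbouring gene. Each stretch is 300 bases of the plus strand of mm10 (read from the RefSeq copy of GRCm38), is 5′ to 3′, overlaps no annotated exon, and has in capitals the 11 bases around each called summit. The first lies far upstream of Adamts6 at chr13:104252925-104253224 and the second before its start at chr13:104286936-104287235. The third ends at the base before the Ccn3 start (chr15:54745402-54745701), the fourth before the internal Ltbp1 start (chr17:75178510-75178809) and the fifth before the Fbln7-201 start (chr2:128863632-128863931).
Adamts6 upstream: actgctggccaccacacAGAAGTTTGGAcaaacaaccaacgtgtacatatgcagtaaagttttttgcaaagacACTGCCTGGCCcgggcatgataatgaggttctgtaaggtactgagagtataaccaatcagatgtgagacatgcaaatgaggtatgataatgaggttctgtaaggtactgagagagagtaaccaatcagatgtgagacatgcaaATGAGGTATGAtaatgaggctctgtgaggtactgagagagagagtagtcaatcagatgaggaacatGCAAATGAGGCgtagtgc
Adamts6 promoter: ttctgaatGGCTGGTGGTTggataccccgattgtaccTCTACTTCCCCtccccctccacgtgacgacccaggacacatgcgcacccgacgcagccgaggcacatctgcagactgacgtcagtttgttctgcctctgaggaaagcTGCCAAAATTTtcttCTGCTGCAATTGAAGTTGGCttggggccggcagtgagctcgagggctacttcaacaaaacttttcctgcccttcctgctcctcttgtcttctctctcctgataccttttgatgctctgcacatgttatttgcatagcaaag
Ccn3 promoter: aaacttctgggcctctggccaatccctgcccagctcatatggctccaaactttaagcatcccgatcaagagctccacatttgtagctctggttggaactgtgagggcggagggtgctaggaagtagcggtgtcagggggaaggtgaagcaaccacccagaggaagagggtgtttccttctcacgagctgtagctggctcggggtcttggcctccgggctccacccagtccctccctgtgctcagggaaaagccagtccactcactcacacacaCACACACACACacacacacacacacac
Ltbp1 internal start: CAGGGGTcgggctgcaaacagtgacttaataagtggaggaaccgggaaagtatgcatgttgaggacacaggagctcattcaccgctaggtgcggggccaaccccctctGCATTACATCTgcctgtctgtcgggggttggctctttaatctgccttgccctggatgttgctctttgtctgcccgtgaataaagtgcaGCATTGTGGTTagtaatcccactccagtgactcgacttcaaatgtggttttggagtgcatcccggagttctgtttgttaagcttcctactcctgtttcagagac
Fbln7 start: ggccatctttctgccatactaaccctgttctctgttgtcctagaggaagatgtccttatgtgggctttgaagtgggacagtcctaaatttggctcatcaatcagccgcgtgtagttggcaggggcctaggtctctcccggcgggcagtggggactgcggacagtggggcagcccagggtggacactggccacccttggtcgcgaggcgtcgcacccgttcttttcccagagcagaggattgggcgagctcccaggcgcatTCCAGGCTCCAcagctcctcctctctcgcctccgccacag
The upstream Adamts6 stretch is masked far more than the other 4. The Ccn3 stretch also ends in a repeat, of CA, which holds its marked summit. The later part of the Adamts6 stretch is made of tandem copies, with 45 bases repeated exactly at a shift of 68 bp. The summits of E2 replicates 2 and 3 lie before the copies, and those of E2 replicate 1 and fulvestrant replicate 1 within them. The whole Adamts6 stretch (100.0%) is soft-masked as repeat in the reference, against 0.0% to 15.3% in the others. Its GC content is 43.7%, against 51.3% to 60.7% in the other stretches.

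The motifs were searched on both strands: the full ERE (GGTCANNNTGACC), its half-site (AGGTCA, which can lie within a full ERE), AP-1 (TGACTCA or TGAGTCA) and the GC box (GGGCGG). None of the 5 stretches holds an ERE, a half-site or an AP-1 match, and the Ccn3 stretch holds 1 GC box, at -197 bp from the start. The stretches placed before a start hold only 1 of 5 called summits at Ccn3, 3 of 5 at Ltbp1 and 1 of 3 at Fbln7. Absence from these stretches is therefore not absence at every called site. Among windows of the same length around the median summits of 28384 recurrent regions, 0.0282% hold an ERE, 13.5% a half-site, 6.85% AP-1 and 29.2% a GC box. Before 93462 protein-coding start sites the shares are 0.0364%, 15.5%, 4.44% and 37.6%. A full ERE is rare in the genome (0.894 per Mb), and the 4 loci together hold 1, inside Ltbp1 29329 bp from the gene start (chr17:75034891-75034903), with the letters GGTCAGCTTGACC. No library called a peak over it, and the nearest summit lay 1519 bp away, in E2 replicate 2 with a −log10 q of 0.226.

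Adamts6 (ENSMUSG00000046169.10, chr13:104287835-104496695, plus strand) had the only region of the 4 loci that was called in every E2 library (3 of 3) and missed in every E2 plus fulvestrant library. This region (chr13:104252862-104253315) is intergenic, with its median summit at -34761 bp from the gene start. The fold enrichment, the read pile at the summit over the local background, was 3.11 in E2 replicate 1, 3.27 in E2 replicate 2 and 2.53 in E2 replicate 3. A peak was also called in fulvestrant replicate 1, at 2.71, and in no vehicle library. The calls were weak: the summits held 6, 6, 4 and 5 reads, and the −log10 q was 0.857, 0.322, 0.0 and 0.403, where 1.3 corresponds to a q-value of 0.05. None of the 4 peaks would be kept at that q-value. Across the genome, 0.137% of 228207 regions had the same pattern, and 0.0416% had the opposite one, which no region of the 4 loci showed. Calls in all E2 and no vehicle library were made at 0.0567% of regions, and this Adamts6 region was among them. Windows at least 90% soft-masked made up 49.4% of the 308 regions with the E2 pattern on the chromosomes searched, against 19.4% of all recurrent regions. The part of repeats in these calls was not tested.

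The promoter of Adamts6 behaved otherwise. Its recurrent region (chr13:104286776-104287344) had summits at -886 to -726 bp from the first start site. The fold enrichment was 4.09 in vehicle replicate 1, 5.95 in vehicle replicate 3, 5.77 in E2 replicate 1, 7.6 in E2 plus fulvestrant replicate 1 and 6.78 in fulvestrant replicate 1. All 5 peaks passed the q-value of 0.05, with a −log10 q from 1.76 to 9.68. Every treatment therefore had a peak here in its number 1 library, and the only other call was in vehicle replicate 3. Promoter peaks in 5 or more libraries were found at 55.3% of protein-coding genes, and at 30.7% with a q-value of 0.05 or less. An intronic region (chr13:104393838-104394321) was called with a q-value of 0.05 or less in vehicle replicate 3, E2 plus fulvestrant replicate 1 and fulvestrant replicate 1, and in no E2 library. With 3 libraries it is not recurrent, and it was picked after its values were seen. The share of all regions with such calls was not counted, so it is a description only.

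Counted over the whole Adamts6 locus, the E2 libraries held 3, 3 and 1 peaks (replicates 1 to 3) and the E2 plus fulvestrant libraries held 2, 2 and 0. Vehicle libraries held 2, 3 and 2, and fulvestrant libraries 7, 1 and 0. The E2 and E2 plus fulvestrant groups overlapped, with means of 2.33 ± 1.15 and 1.33 ± 1.15 peaks (SD, n = 3). The difference was 1.0 peak (two-sided exact permutation p = 0.5, Benjamini-Hochberg adjusted p = 1.0 over 21630 loci). Number by number the direction was the same in 3 of 3, but libraries numbered 2 and 3 are not shown to be pairs. The difference turned to -0.333 when only peaks with a q-value of 0.05 or less were counted. E2 and vehicle had the same mean of 2.33 (exact permutation p = 1.0, n = 3). With 3 libraries against 3 the smallest p the exact test can give is 0.1, so no comparison of peak counts here could pass 0.05.

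**Figure D2:**
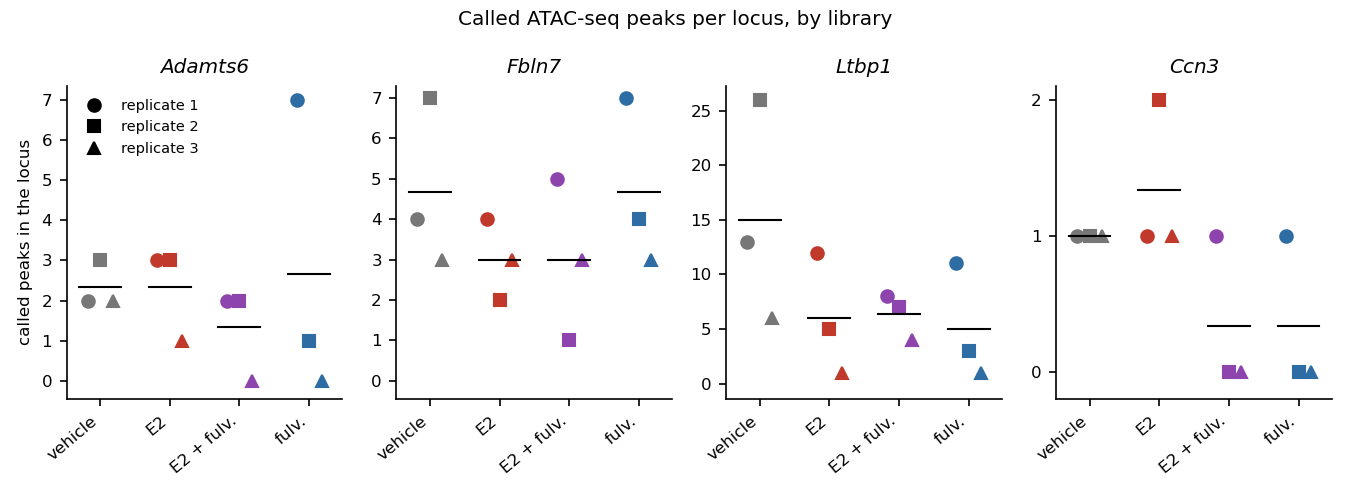
Number of called peaks in each locus (y axis) by treatment (x axis), with 1 point per library, shaped by replicate number, and a line at the mean of 3 libraries. In the Adamts6, Fbln7 and Ltbp1 panels every pair of treatments overlaps, and the Ltbp1 panel spans 1 to 26 peaks.

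Fbln7 (ENSMUSG00000027386.9, chr2:128862981-128897034, plus strand) had no strong peak at its own start sites. Its recurrent region, the strongest of the 5, lies at the other end of the locus (chr2:128817471-128818663), with a median summit at -44957 bp from Fbln7 and at -94 bp from the start of Tmem87b, the upstream neighbour. It was called in 7 libraries, with a fold enrichment of 5.91, 3.89 and 10.5 in the vehicle libraries and 8.81 in E2 replicate 1. It was 8.73 in E2 plus fulvestrant replicate 1, and 8.52 and 3.5 in fulvestrant replicates 1 and 2. The −log10 q reached 25.3, in vehicle replicate 3. The 2 E2 and the 2 E2 plus fulvestrant libraries of numbers 2 and 3 had no call.

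At the Fbln7-201 start itself, 3 libraries had a peak, with summits at -35 bp in E2 replicate 1, 48 bp in vehicle replicate 1 and 60 bp in fulvestrant replicate 1. The fold enrichment was 3.11, 3.49 and 2.71, each on 5 or 6 reads, and none had a q-value of 0.05 or less. Summits within 3000 bp of a start were found in 8 libraries, 2 from each treatment. Within 1000 bp they were found in 4, of which 2 were E2, 1 vehicle, 1 fulvestrant and 0 E2 plus fulvestrant. Peaks with a q-value of 0.05 or less near a start were found in 0 of 12 libraries.

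The E2 libraries held 4, 2 and 3 peaks over the Fbln7 locus and the E2 plus fulvestrant libraries 5, 1 and 3, so that both means were 3.0 (SD 1.0 and 2.0, n = 3, exact permutation p = 1.0). Vehicle libraries held 4, 7 and 3 and fulvestrant libraries 7, 4 and 3. The E2 mean of 3.0 stood against 4.67 ± 2.08 in vehicle (n = 3), a difference of -1.67 peaks (exact permutation p = 0.5, adjusted p = 1.0). Per 10000 peaks of each list this difference was 0.013, on the other side of 0.

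Ltbp1 (ENSMUSG00000001870.16, chr17:75005568-75392512, plus strand) carried 97 of the 178 peaks on the longest locus. The gene has 8 annotated start sites, and the recurrent region was not at the first one. It lies inside the gene (chr17:75178052-75178940), at a start shared by a pair of shorter transcripts, with a median summit 172943 bp from the gene start and at -299 bp from that internal start. The fold enrichment was 3.72 in vehicle replicate 1, 7.2 in vehicle replicate 3, 5.65 in E2 replicate 1, 4.17 in E2 plus fulvestrant replicate 1 and 3.16 in fulvestrant replicate 1. Of these 5 peaks 4 had a q-value of 0.05 or less, and the −log10 q reached 9.42. The libraries with a call were the same 5 as at the Adamts6 promoter.

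Around the first Ltbp1 start, that of the long transcripts, peaks were scattered and low. Among others, summits lay at -609 bp in vehicle replicate 1, at -432 bp in E2 replicate 1 and at -2820 bp in E2 replicate 3. The fold enrichment of these 3 was 2.92, 3.11 and 3.54, with a −log10 q of at most 0.857. Over all start sites Ltbp1 had a promoter peak in 9 libraries, in all 3 of vehicle and of E2, in 2 of E2 plus fulvestrant and in 1 of fulvestrant. Within 1000 bp these were 5 libraries, and with a q-value of 0.05 or less they were 4.

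The E2 libraries held 12, 5 and 1 peaks over the Ltbp1 locus, and the E2 plus fulvestrant libraries 8, 7 and 4. Vehicle libraries held 13, 26 and 6, and fulvestrant libraries 11, 3 and 1. E2 (6.0 ± 5.57) and E2 plus fulvestrant (6.33 ± 2.08) differed by -0.333 peaks (n = 3, exact permutation p = 1.0, adjusted p = 1.0). Per 10000 peaks of each list the means were 0.955 ± 0.606 and 1.48 ± 0.397, a difference of -0.523 (exact permutation p = 0.4, n = 3). The groups separated when each list was cut to its strongest 20000 peaks. The E2 libraries then held 1 peak each, and the E2 plus fulvestrant libraries 4, 5 and 3. Vehicle libraries held 2, 6 and 1 and fulvestrant libraries 1, 0 and 1, so vehicle overlapped both groups. The difference of -3.0 peaks had the smallest exact permutation p of 3 against 3, 0.1. At that list length 1.02% of 20623 loci had every E2 library below every E2 plus fulvestrant library, and 0.606% the opposite. Many peaks were tied in p at the limit (90 to 12163 per library), and the difference was -3.33 with all of them kept and -2.33 with all dropped (exact permutation p = 0.1 in both). With all peaks, the sign depended on the replicate number, with 4 more peaks under E2 in number 1 and a mean difference of -2.5 in numbers 2 and 3. Against vehicle (15 ± 10.1), E2 was lower in 3 of 3 numbers while the groups overlapped (difference -9.0 peaks, n = 3, exact permutation p = 0.2, adjusted p = 1.0). The difference was -1 in number 1 and a mean of -13.0 in numbers 2 and 3, though the numbers did not pair the E2 and vehicle libraries. Vehicle replicate 2, with 26 of the 45 vehicle peaks, was also the longest peak list of the series, and without it the difference was -3.5. Per 10000 peaks of each list the direction stayed, with a difference of -0.839 (exact permutation p = 0.2, n = 3). In unscaled counts the E2 mean was below the vehicle mean at 76.3% of all loci, so the Ltbp1 direction was that of most genes.

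Ccn3 (ENSMUSG00000037362.8, chr15:54745702-54754039, plus strand) had the fewest peaks, 9, and most were at its single start site. The recurrent region (chr15:54745274-54746178) was called in 5 libraries. Its fold enrichment was 6.94 in vehicle replicate 3, 7.26 in E2 replicate 1, 3.27 in E2 replicate 2, 4.27 in E2 plus fulvestrant replicate 1 and 6.78 in fulvestrant replicate 1. All but E2 replicate 2, whose −log10 q was 0.322, had a q-value of 0.05 or less, with a −log10 q of up to 9.93. E2 was the one treatment with 2 libraries among these calls.

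The E2 libraries held 1, 2 and 1 peaks over the Ccn3 locus, the E2 plus fulvestrant libraries 1, 0 and 0, the vehicle libraries 1 each and the fulvestrant libraries 1, 0 and 0. Mean counts of 1.33 ± 0.577 (E2) and 0.333 ± 0.577 (E2 plus fulvestrant) gave a difference of 1.0 peak (n = 3, exact permutation p = 0.3, adjusted p = 1.0). The difference within number 1 was 0, that within the other numbers was 1.5, and it was 0.0 among peaks with a q-value of 0.05 or less. Against vehicle the difference was 0.333 peaks (exact permutation p = 1.0). Promoter peaks were called in 3 E2 libraries, 2 vehicle libraries and 1 library of each fulvestrant group. These are 7 libraries, and 32.5% of protein-coding genes had as many or more. The E2 replicate 3 call behind the count of 3 was a peak of 4 reads at -2295 bp with a −log10 q of 0.0.

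Counting all peaks, 0 of the 4 loci had every E2 library above or below every E2 plus fulvestrant library. The same separation was found at 1.67% of 21630 loci with E2 higher and at 0.448% with E2 lower. Against vehicle 0 of the 4 loci separated, with 0.171% of all loci higher under E2 and 3.25% lower. Called promoters in all 3 E2 libraries with none in the E2 plus fulvestrant group were found for 0 of the 4 genes and for 0.26% of 21938 genes. At an adjusted p of 0.05, and at an unadjusted p of 0.05, 0 loci of the genome passed the exact test, whose smallest p is 0.1.

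**Figure D3:**
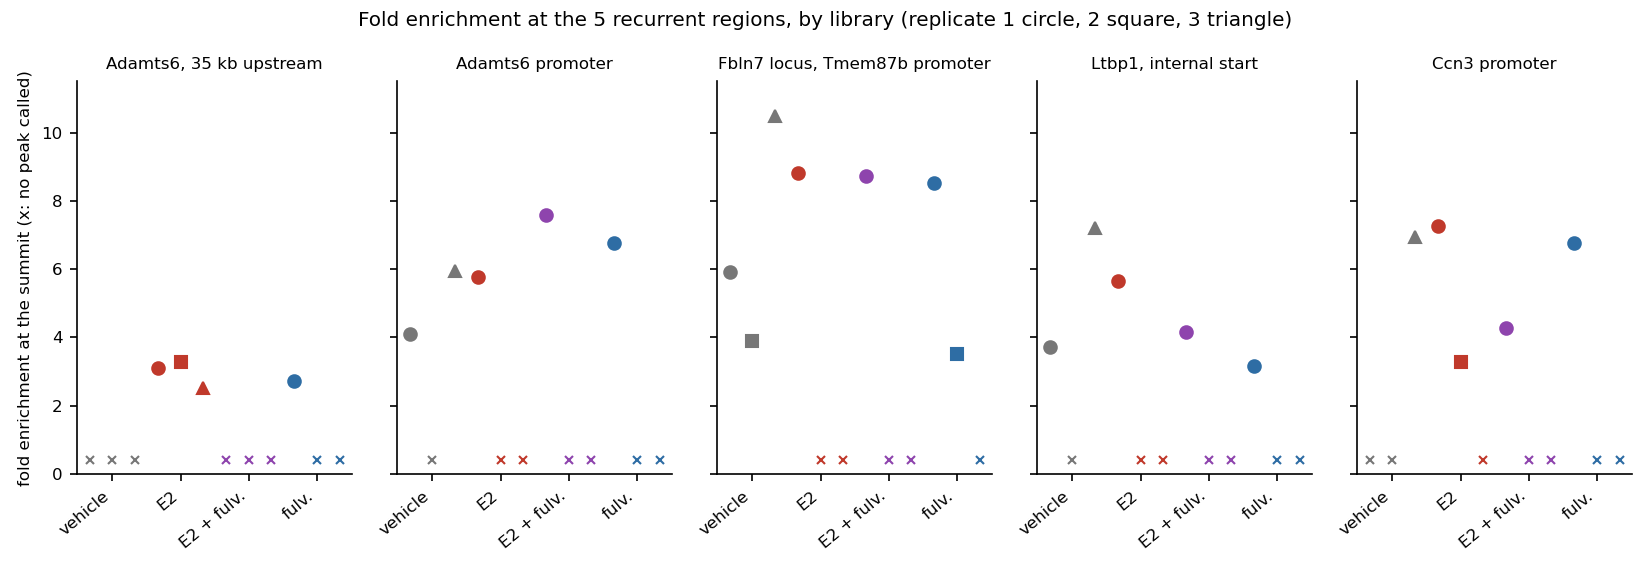
Fold enrichment at the summit (y axis) in each of the 12 libraries, ordered by treatment along the x axis, for the 5 recurrent regions, with a cross where no peak was called. Circles (replicate 1) and the vehicle triangle (replicate 3) carry the high values in the 4 right panels, and the left panel holds 4 points between 2.53 and 3.27, of which 3 are E2.

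Calls at the 5 recurrent regions were unequal between the replicate numbers, as they were at recurrent regions of the whole genome. These regions were selected for having many calls, so the shares are a description only. With numbers 2 and 3 alone 0 of the 4 loci had a recurrent region, at an unchanged limit of 4 libraries, now out of 8. Of the 20 possible calls in number 1 libraries 17 were made (85.0%), against 9 of 40 (22.5%) in numbers 2 and 3, where vehicle replicate 3 alone made 4 of its 5. Over all recurrent regions of the genome the corresponding shares were 72.6%, 33.7% and, for vehicle replicate 3, 65.4%. E2 replicate 1 and fulvestrant replicate 1 called all 5 regions. E2 plus fulvestrant replicates 2 and 3 and fulvestrant replicate 3 called 0. The number of the 4 promoters with a peak was 3 or 4 in each number 1 library, 3 in vehicle replicate 3 and in E2 replicate 3, and 0 to 2 in the other 6.

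**Figure D4:**
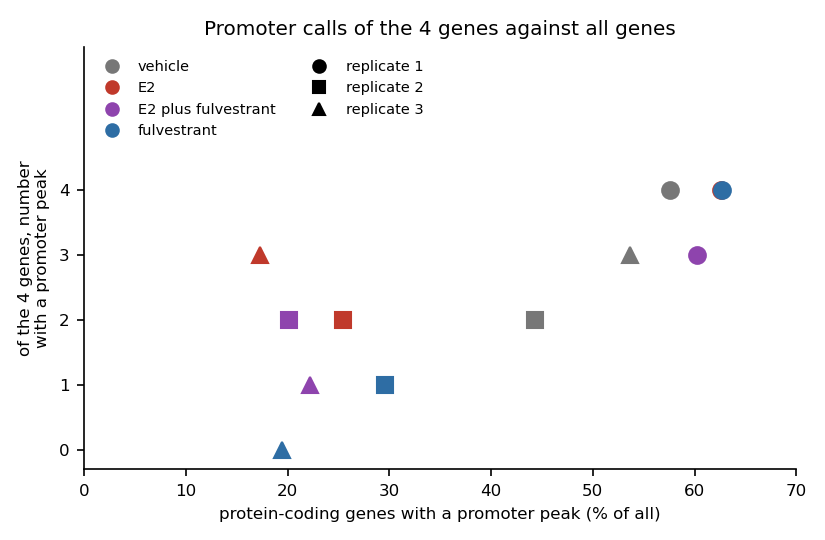
Number of the 4 genes with a promoter peak (y axis) against the share of all protein-coding genes with one (x axis, %), with 1 point per library, coloured by treatment and shaped by replicate number. The 4 circles and vehicle replicate 3 lie at 53.7% or more with 3 or 4 promoters, and E2 replicate 3 reaches 3 promoters at 17.3%.

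The genes of the 4 families gave the wider view. All 38 listed genes had peaks: 19 ADAMTS proteinases, 7 fibulins, 6 LTBPs and fibrillins, and 6 CCN proteins. E2 had the higher mean at 22 genes, the lower at 13 and the same at 3, so E2 was higher at 57.9% of the list and at 52.3% of all loci. The median difference was 0.667 peaks in the list and 0.333 over all loci. None of the 38 separated the E2 from the E2 plus fulvestrant libraries. By family, E2 was higher at 11 of 19 ADAMTS genes, 4 of 7 fibulins, 2 of 6 LTBPs and fibrillins and 5 of 6 CCN genes. Against vehicle, E2 was lower at 33 of 38 genes (86.8%, against 76.3% of all loci). A promoter peak in 6 or more libraries was found at 24 of the 38 genes, and at 9912 of all 21938 genes.

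Some near relatives of the 4 genes had larger differences, and Adamts9 and Ltbp2 were the highest and, with Adamts14, the lowest of the list. Adamts9, another matrix proteinase, had 12, 10 and 3 peaks with E2 and 7, 1 and 2 with E2 plus fulvestrant, a difference of 5.0 (exact permutation p = 0.2, adjusted p = 1.0). Ccn1, a matricellular protein of the same family as Ccn3, had 4, 1 and 2 against 1, 0 and 0, a difference of 2.0 (exact permutation p = 0.2, adjusted p = 1.0). Ltbp2, a relative of Ltbp1, went the other way with 7, 2 and 0 against 10, 5 and 5, a difference of -3.67 (exact permutation p = 0.3, adjusted p = 1.0). Their groups overlapped, as those of the 4 genes did. These 3 genes were chosen after their values were seen.

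**Figure D5:**
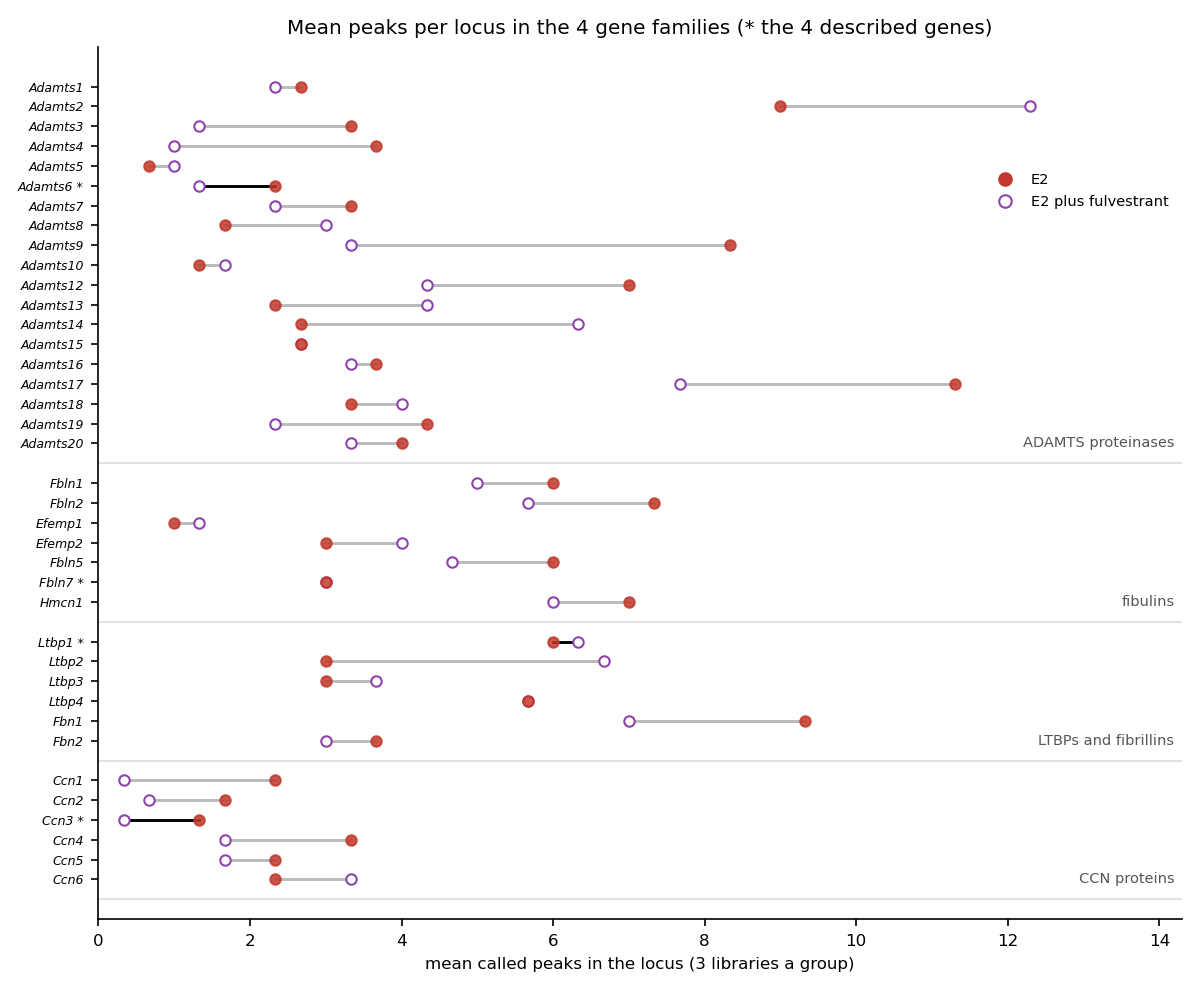
Mean number of called peaks per locus (x axis, 3 libraries a group) with E2 (filled) and with E2 plus fulvestrant (open) for the 38 genes of the 4 families, with a black line and an asterisk for the 4 described genes. Filled points lie to the right at 22 genes and to the left at 13.

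The loci whose peaks per 10000 varied most like those of a member over the 12 libraries were Fbxw19 (Pearson r = 0.881) and Spz1 (0.863) for Adamts6, Ptx4 (0.917) and Gnat1 (0.914) for Fbln7, and Sh3gl2 (0.927) and Rnf40 (0.923) for Ltbp1. These are the highest among 13834 to 13835 candidate loci with at least 24 peaks, they share libraries and list lengths, and they are given as a description only. Ccn3, with 9 peaks, was under that minimum.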

How the data were processed

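Peaks were read from 12 deposited peak lists, 1 per library, with coordinates in mm10. The authors trimmed reads with Trimmomatic 0.39, aligned them with Bowtie2, handled duplicates with Picard 2.21.4 and called peaks in each library separately with MACS2, keeping duplicates at the calling step and placing fixed windows around shifted cut ends. Each deposited line gives a fold ratio of pile to local background, −log10 p and −log10 q values, a display score that was not used, and a summit position. All peaks had a −log10 p of 2.01 or more, so the lists were deposited at a lenient p threshold. Every chromosome of the peak lists was within its GRCm38 length.

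A peak belonged to a locus by its summit. Peaks that overlapped across the 12 lists were joined into regions. Read numbers at summits were solved from the fold and p (tolerance 0.002), which succeeded for 99.95% to 99.99% of peaks with a −log10 p under 15. Peak counts per locus were compared by a two-sided exact permutation test on all 21630 loci with a peak, with Benjamini-Hochberg adjustment (Python 3.11.15). The design assumed no replicate block. Same-numbered libraries deviated together between E2 and E2 plus fulvestrant (r = 0.536, 0.237 and 0.214 over 28579 recurrent regions), which met the limit of 0.1 set for pairing. Different numbers were as alike within 2 and 3 (r = 0.186 and 0.249), so these values set number 1 apart and do not show that 2 pairs with 2 or 3 with 3. Scripts were tested on simulated data. The text names the 4 genes, up to 5 recurrent regions each with the promoter, and regions that split E2 from E2 plus fulvestrant without exception. The rule also named the 2 most alike loci and family genes that separate the groups, of which there were 0. Adamts9, Adamts14, Ccn1, Ltbp2 and the intronic Adamts6 region were named outside this rule, after their values were seen. The members and lists were chosen with earlier results of these data known. Alternatives covered the q-value, list length, upstream distance, region and promoter definitions, the block, and left-out libraries.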

Additional observations from a re-analysis of the deposited data

How the results depend on the processing

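No test could pass 0.05, so the alternatives bear on direction and counts. With peaks of q 0.05 or less, E2 minus E2 plus fulvestrant turned to -0.333 for Adamts6 and to 0.333 for Ltbp1, and was 0.0 for Ccn3. For Fbln7, whose difference was 0.0, it was 0.667 with the strongest 20000 peaks of each list, -0.042 per 10000 peaks and 0.333 with 10000 bp upstream. For Ltbp1 the strongest 20000 peaks gave -3.0 with groups that no longer overlapped (exact permutation p = 0.1). Ties in p at that limit were broken by file order. In a check chosen after seeing the data, keeping and dropping all tied peaks gave 0.0 and -0.333 for Adamts6 (0.333 before), 0.667 and 0.333 for Fbln7 and -3.33 and -2.33 for Ltbp1, and -0.333 with ties dropped for Adamts6 against vehicle. Within number 1 it was -1.0 for Fbln7, 4.0 for Ltbp1 and 0.0 for Ccn3, and within numbers 2 and 3 it was 0.5 for Fbln7. Leaving out 1 library moved it from -1.0 to 1.0 for Fbln7 and from -3.33 to 2.17 for Ltbp1, where the sign turned without E2 plus fulvestrant replicate 1 (0.5), without E2 replicate 2 (0.167) and without E2 replicate 3 (2.17).

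For E2 minus vehicle, Adamts6 (0.0) moved to -0.667 with q 0.05 or less, to 0.11 per 10000 peaks, to -0.333 with 10000 bp upstream, to 1.0 in number 1, to -0.5 in numbers 2 and 3, and between -0.333 and 0.667 with 1 library left out. Fbln7 turned to 0.013 per 10000 peaks and was 0.0 in number 1. Ccn3 was 0.0 with q 0.05 or less and in number 1, and ranged from 0.0 to 0.5 with 1 library left out. The left-out ranges were 0.333 to 1.67 for Adamts6 and 0.667 to 1.33 for Ccn3 against E2 plus fulvestrant, and -2.5 to -0.5 for Fbln7 and -13.5 to -3.5 for Ltbp1 against vehicle.

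The replicate block (exact sign changes within numbers, smallest p 0.25) could change neither the differences nor the calls, so it is no check on them. The mean of the differences within numbers equals the difference of the group means by arithmetic. Against E2 plus fulvestrant it was 1.0, 0.0, -0.333 and 1.0 for Adamts6, Fbln7, Ltbp1 and Ccn3. No call could change because no test could pass with or without the block. Between E2 and vehicle the numbers did not pair the libraries (r = 0.302, 0.298 and -0.215).

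The Adamts6 region with calls from every E2 library and none from the E2 plus fulvestrant group was lost at q 0.05 or less (0 left). Leaving out 1 library of these groups only loosens the pattern, so the region could not be lost, and the count stayed at 1. The reverse pattern was found at 0 regions throughout. Recurrent regions at Adamts6 fell to 1 at q 0.05 or less, and in numbers 2 and 3 alone, chosen after seeing the data, 0 remained at any of the 4 loci. The limit stayed at 4 libraries with only 8 to draw on, which is a stricter rule. Promoter calls went from 8 libraries to 4 within 1000 bp and to 0 at q 0.05 or less for Fbln7, from 9 to 5 and 4 for Ltbp1, and from 7 to 4 at q 0.05 or less for Ccn3. In numbers 2 and 3 alone they were 1, 5, 5 and 3 of 8 libraries for Adamts6, Fbln7, Ltbp1 and Ccn3.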
